A study of Mus musculus with 12 samples.

Results

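10 genes of the NF-κB system, 4 subunits and 6 inhibitors or feedback regulators, were followed in mouse embryonic fibroblasts exposed to 1 of 2 plant flavones. The genes were Nfkb1, Nfkb2, Rela, Relb, Nfkbia, Nfkbib, Nfkbie, Nfkbiz, Tnfaip3 and Birc3, chosen by name as parts of the pathway with earlier results of these data known. They were 10 of the 24458 genes in the deposited table, and all 10 were among the 12198 genes tested, those whose normalized count averaged 10 or more. Mouse embryonic fibroblasts are connective tissue cells grown from embryos, used here up to the fifth passage. Cells received apigenin at 50 µM for 24 h (n = 4), chrysin at 50 µM for 24 h (n = 4) or control medium alone (untreated, n = 4). Both compounds are flavones; they differ in a hydroxyl group on the B ring, present in apigenin and absent from chrysin. The sources used here do not give the strain, the genotype or the solvent of the flavones, and effects of solvent and flavone cannot be told apart in comparisons with untreated cells. The labels do not state that the 4 samples within a group came from separate cultures. The p-values therefore reflect the spread among the sequenced samples alone, and part or all of that spread may be technical.

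NF-κB is a family of dimeric transcription factors held inactive in the cytoplasm by IκB proteins. Signals from cytokine receptors and Toll-like receptors activate the IκB kinases, which mark IκB proteins for degradation and free the dimers to enter the nucleus. Several genes that the dimers switch on encode their own inhibitors, among them IκBα and the ubiquitin-editing enzyme A20, so that the pathway limits itself. In fibroblasts the pathway is best known for the response to tumour necrosis factor and interleukin-1. RNA levels, which are what was measured here, do not show how much of the protein is in the nucleus.

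Recovered read totals ranged from 4298640 to 15512634 per library. Chrysin replicate 1, with 12957316 reads, was deeper than the other chrysin libraries, which had 4298640 to 5679356. The 12 fibroblast markers were all tested, and their summed log2 level was 17.32 to 17.51 in apigenin, 17.59 to 17.94 in chrysin and 17.86 to 17.95 in untreated libraries. Of these markers, 1 rose and 10 fell with apigenin, and 1 rose and 8 fell with chrysin. Over all tested genes, 23.0% rose and 23.2% fell with apigenin, and 26.3% rose and 26.7% fell with chrysin. The summed level of 11 leukocyte and macrophage markers was 10.61 to 10.97 in apigenin, 9.80 to 10.01 in chrysin and 10.03 to 10.23 in untreated libraries. Of the 8 tested, 2 rose with apigenin and 2 fell with chrysin. The lymphocyte markers Cd3e and Ms4a1 were at 0 reads in every library, Ptprc had 2 to 36 reads, and Cd68 and Lyz2 were the most abundant. All 6 epithelial markers stayed under 10 reads in every library, and the endothelial marker Tie1 was at 0. The summed level of 6 endothelial markers was 4.11 to 4.64 in apigenin, 4.84 to 5.98 in chrysin and 6.23 to 6.60 in untreated libraries. Both tested endothelial markers fell with apigenin, and 1 fell with chrysin. The summed level of 8 pericyte and smooth muscle markers was 13.94 to 14.25 in apigenin, 15.15 to 15.20 in chrysin and 14.51 to 14.73 in untreated libraries. Of these, 4 fell with apigenin and 5 rose with chrysin. The part of these shifts in the results below was not tested, and in bulk RNA fewer cells of a type and less RNA per cell cannot be told apart.

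The apigenin libraries did not form 1 cluster. On the first principal component (43.8% of the variance) replicates 1 and 3 lay at -4.78 and -7.16, and replicates 2 and 4 at 38.7 and 42.3. Among the 10 genes, Nfkb2, Relb, Nfkbie and Birc3 were higher in both of replicates 2 and 4 than in both of replicates 1 and 3, and the ranges of the other 6 overlapped. Of all tested genes, 34.6% were higher and 34.1% lower in both of replicates 2 and 4. A single value also stood apart. Nfkbib had a log2 level of 11.50 in apigenin replicate 3, against 7.95 ± 0.22 (SD, n = 3) in the other apigenin libraries. Within that library Nfkbib alone among the 12198 tested genes lay at least 2 log2 units above all 11 other libraries. Values of Nfkbib are therefore given with and without it.

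With chrysin 6 of the 10 genes rose and none fell, with apigenin 2 rose and 2 fell, and 6 of the 10 were lower with apigenin than with chrysin. A gene was called at a limma adjusted p under 0.05 over all 12198 tested genes. With apigenin against untreated, Nfkb2 and Nfkbiz rose and Tnfaip3 and Birc3 fell, where 23.0% of all tested genes rose and 23.2% fell. With chrysin against untreated, Nfkb1, Nfkb2, Relb, Nfkbia, Tnfaip3 and Birc3 rose, where 26.3% of all tested genes rose and 26.7% fell. With apigenin against chrysin, Nfkbiz was higher and Nfkb1, Rela, Relb, Nfkbia, Tnfaip3 and Birc3 were lower, where 24.7% of all tested genes were higher and 26.1% lower. The 4 values of each group did not overlap for 5 genes with apigenin against untreated, 7 with chrysin against untreated and 7 with apigenin against chrysin. The same was true of 45.1%, 51.4% and 41.0% of all tested genes in those comparisons, in that order. The median log2 fold change of the 10 genes was 0.19 for apigenin against untreated, 0.90 for chrysin against untreated and -0.47 for apigenin against chrysin, beside 0.01, -0.03 and 0.01 over all tested genes. Both comparisons with untreated cells used the same 4 untreated libraries, and their values are set side by side only. Without apigenin replicate 3 the counts were 4 higher and 1 lower for apigenin against untreated, 7 higher for chrysin against untreated, and 1 higher and 7 lower for apigenin against chrysin.

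**Figure D1:**
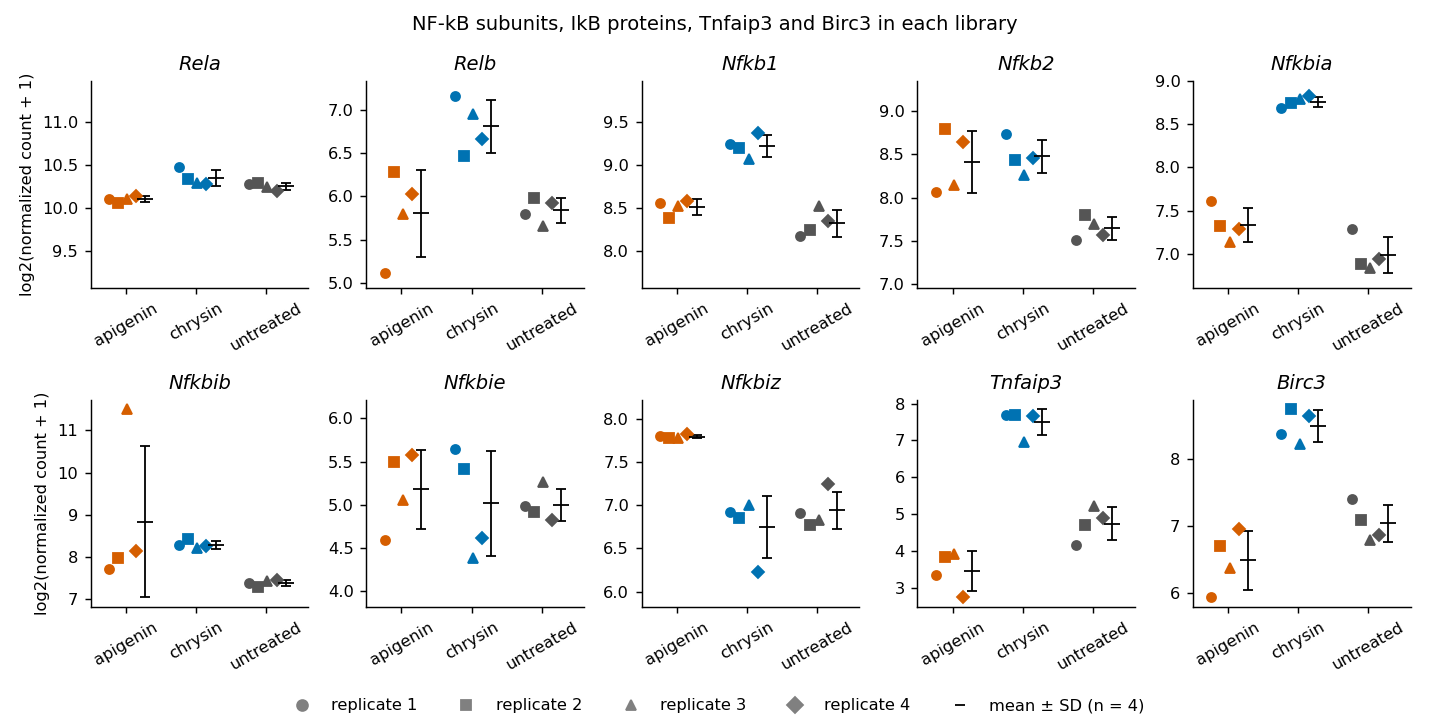
Log2 of the normalized count plus 1 for each of the 10 genes, 1 point per library, with apigenin left of chrysin and untreated. Black bars mark group means ± SD (n = 4). The 4 chrysin values of Nfkbia, Tnfaip3 and Birc3 lie above all apigenin and untreated values, and 1 apigenin value of Nfkbib at 11.50 stands far above the rest.

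**Figure D2:**
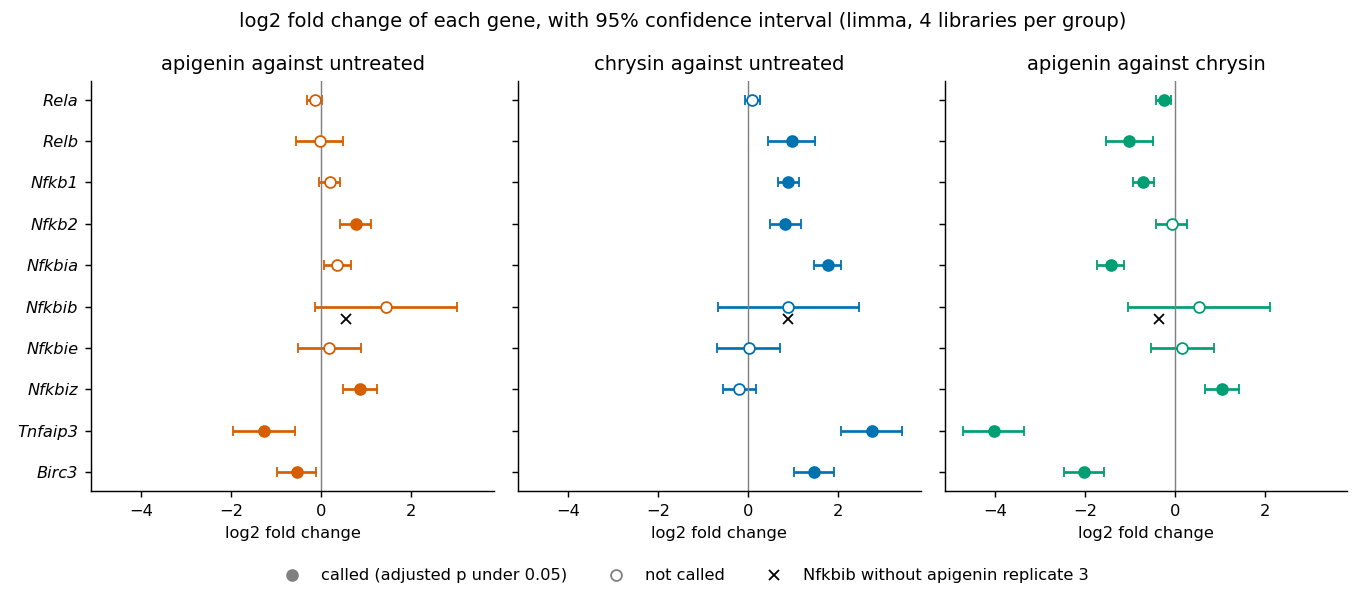
Log2 fold change of each gene in the 3 comparisons, with 95% confidence intervals from limma (n = 4 per group). Tnfaip3 stood at -1.28 for apigenin against untreated, 2.75 for chrysin against untreated and -4.03 for apigenin against chrysin.

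Of the 10 genes, 7 had a promoter in the RefSeq table for assembly GRCm38.p6, a build other than the mm9 of the counts; Nfkb1, Relb and Nfkbiz were not matched. The letters of the κB consensus, the 10-base site that NF-κB dimers bind, were searched on both strands from 250 bases before to 50 bases after each start. They occurred for Nfkb2, Nfkbia, Nfkbie and Tnfaip3, which is 4 of 7 genes, and in 6 of their 10 promoters, some of which overlap. Of all 32851 promoters in the table, 8.46% held a match. The AP-1 letters TGANTCA occurred for Nfkb2, Nfkbie and Tnfaip3 (7.81% of all promoters), and the antioxidant response element core TGACNNNGC for Nfkbia (12.4%). A match is a description of letters and not a bound site. Birc3, which held none, rose with chrysin, and Nfkbie, which held 1, was not called. Nfkbib also held none and rose with chrysin when apigenin replicate 3 was left out. With apigenin against untreated, Tnfaip3 fell, Nfkb2 rose and Nfkbia was not called. The 250 bases before the start are shown for 4 genes, 3 that hold matches and rose with chrysin, and Rela, which holds none and was not called with either flavone against untreated. They run 5′ to 3′ on the gene's strand, ending just before the start, with κB matches in capitals. They lie at chr12:55492648-55492897 (minus strand) for Nfkbia, chr10:19015411-19015660 (minus) for the upstream start of Tnfaip3, chr19:46304487-46304736 (plus) for the first start of Nfkb2 and chr19:5637291-5637540 (plus) for Rela.
Nfkbia: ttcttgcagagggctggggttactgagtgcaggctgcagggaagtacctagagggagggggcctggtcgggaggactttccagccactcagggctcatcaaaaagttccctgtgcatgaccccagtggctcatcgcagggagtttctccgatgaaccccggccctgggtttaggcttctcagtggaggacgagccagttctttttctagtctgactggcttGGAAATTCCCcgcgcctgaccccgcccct
Tnfaip3: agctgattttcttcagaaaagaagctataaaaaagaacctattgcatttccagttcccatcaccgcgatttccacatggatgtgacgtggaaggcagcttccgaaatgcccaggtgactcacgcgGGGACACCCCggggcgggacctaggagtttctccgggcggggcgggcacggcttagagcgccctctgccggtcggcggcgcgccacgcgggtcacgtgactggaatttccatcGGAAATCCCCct
Nfkb2: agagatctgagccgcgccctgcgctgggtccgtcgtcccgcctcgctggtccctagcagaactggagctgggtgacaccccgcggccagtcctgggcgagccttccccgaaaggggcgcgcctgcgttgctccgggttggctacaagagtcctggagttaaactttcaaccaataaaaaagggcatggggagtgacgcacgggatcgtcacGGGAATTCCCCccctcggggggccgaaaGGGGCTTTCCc
Rela: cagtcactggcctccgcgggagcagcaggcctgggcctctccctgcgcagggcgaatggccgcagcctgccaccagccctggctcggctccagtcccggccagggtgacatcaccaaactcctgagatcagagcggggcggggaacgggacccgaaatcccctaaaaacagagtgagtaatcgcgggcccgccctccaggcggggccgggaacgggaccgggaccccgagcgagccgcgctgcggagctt
The Nfkbia match began 29 bases before the start, those of Tnfaip3 125 and 12 bases before it, and those of Nfkb2 39, 38 and 11 bases before it, the first pair overlapping in 1 run of capitals.

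Among the subunits, Nfkb1, Nfkb2 and Relb rose with chrysin, and Rela was not called with either flavone against untreated. Rela (chr19:5637483-5648130, plus strand, mm9, as for all gene positions here) encodes p65, the main activating subunit of the canonical dimer. Its log2 level, here and below the log2 of the normalized count plus 1, was 10.10, 10.06, 10.11 and 10.14 in apigenin, 10.48, 10.34, 10.29 and 10.28 in chrysin, and 10.27, 10.28, 10.24 and 10.19 in untreated libraries. All 4 apigenin values lay below all chrysin and untreated values, and chrysin and untreated values overlapped. The log2 fold change was -0.15 ± 0.08 for apigenin against untreated (SE, adjusted p = 0.136) and 0.10 ± 0.08 for chrysin against untreated (adjusted p = 0.31), neither called. Rela was lower with apigenin than with chrysin by limma, at -0.24 ± 0.08 (adjusted p = 0.0158), a call lost under quantile normalization (-0.05, adjusted p = 0.602).

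Nfkb1 (chr3:135247619-135354511, minus strand) encodes p105, the precursor of the DNA-binding subunit p50. Its log2 level was 8.56, 8.38, 8.52 and 8.59 in apigenin, 9.23, 9.19, 9.06 and 9.37 in chrysin, and 8.17, 8.24, 8.52 and 8.35 in untreated libraries. All chrysin values lay above all others, while apigenin and untreated values overlapped. It rose 1.86-fold with chrysin (log2 0.89 ± 0.11, adjusted p = 4.68e-06), and with apigenin its log2 fold change was 0.19 ± 0.11 (adjusted p = 0.17), with a 95% interval of -0.04 to 0.42. Relb (chr7:20191566-20214787, minus strand) encodes the subunit that pairs with p52 in the non-canonical pathway. Values on that log2 scale were 5.11, 6.28, 5.80 and 6.03 in apigenin, 7.17, 6.47, 6.95 and 6.66 in chrysin, and 5.80, 5.98, 5.66 and 5.93 in untreated libraries, on 29 to 220 reads. The lowest chrysin value was above the highest apigenin value, and apigenin values lay on both sides of the untreated ones. Relb rose 1.96-fold with chrysin (log2 0.97 ± 0.25, adjusted p = 0.00349), and with apigenin its log2 fold change was -0.04 ± 0.25 (adjusted p = 0.913).

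Nfkb2 (chr19:46379227-46386580, plus strand) encodes p100, which is both an IκB-like inhibitor and the precursor of p52, and it was called higher with each flavone against untreated. Log2 levels reached 8.06, 8.79, 8.14 and 8.64 in apigenin, 8.74, 8.44, 8.27 and 8.46 in chrysin, and 7.51, 7.80, 7.69 and 7.57 in untreated libraries. Every treated value lay above every untreated value, and the flavone groups overlapped. It rose 1.70-fold with apigenin (log2 0.77 ± 0.16, adjusted p = 0.000983) and 1.78-fold with chrysin (log2 0.83 ± 0.16, adjusted p = 0.000387). The rise with apigenin was 0.46 ± 0.15 on the log2 scale with replicates 1 and 3 alone (adjusted p = 0.0218) and 1.07 ± 0.15 with replicates 2 and 4 alone (adjusted p = 2.48e-06). Nfkb2 overlaps Psd on the opposite strand by 4 bases.

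Rel and Bcl3 stood in a separate list of other subunits and IκB proteins, and 2 of its 3 genes were tested. Rel, the lymphoid subunit c-Rel, was lowly expressed, with log2 levels of 4.66 to 5.23 in apigenin, 5.85 to 6.66 in chrysin and 4.79 to 5.70 in untreated libraries. It rose with chrysin (log2 1.26 ± 0.28, adjusted p = 0.00134) and was not called with apigenin (-0.09 ± 0.28, adjusted p = 0.818). Bcl3, a nuclear IκB protein that binds p50 and p52 dimers, had log2 levels of 6.45, 5.25, 6.49 and 5.11 in apigenin, 6.73, 7.02, 7.15 and 7.38 in chrysin, and 5.71, 4.44, 4.80 and 4.66 in untreated libraries. All chrysin values were above all others, and the apigenin values overlapped the untreated ones, with replicates 1 and 3 the higher pair. It rose by log2 2.17 ± 0.34 with chrysin (adjusted p = 5.41e-05) and 0.93 ± 0.34 with apigenin (adjusted p = 0.0343). The apigenin call was lost in 9 of 24 alternatives, among them those without apigenin replicate 1 (0.72, adjusted p = 0.0998) or 3 (0.70, adjusted p = 0.106), or untreated replicate 2 (0.77, adjusted p = 0.105), 3 (0.89, adjusted p = 0.0733) or 4 (0.84, adjusted p = 0.0845), and with apigenin replicates 2 and 4 alone (0.28, adjusted p = 0.485).

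The IκB genes did not move as a group. Nfkbia (chr12:56590398-56593634, minus strand) encodes IκBα, the inhibitor that NF-κB itself induces and whose promoter is printed above. Log2 levels were 7.61, 7.32, 7.14 and 7.29 in apigenin, 8.69, 8.75, 8.79 and 8.82 in chrysin, and 7.29, 6.89, 6.83 and 6.94 in untreated libraries. The chrysin values were high and close together (SD 0.06, n = 4), and apigenin and untreated values overlapped at their edges. Nfkbia rose 3.42-fold with chrysin (log2 1.78 ± 0.14, adjusted p = 4.29e-08). With apigenin its log2 fold change was 0.35 ± 0.14 (95% interval 0.05 to 0.65), just outside the threshold (adjusted p = 0.0507). It was called in 5 of 24 alternatives, with adjusted p-values of 0.0166 to 0.0464, among them the fit without apigenin replicate 3 (0.0303) and without untreated replicate 1 (0.0166).

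Nfkbib (chr7:29543270-29552531, minus strand) encodes IκBβ, an IκB protein resynthesized more slowly than IκBα. On the log2 scale it measured 7.71, 7.99, 11.50 and 8.14 in apigenin, 8.30, 8.42, 8.21 and 8.26 in chrysin, and 7.38, 7.30, 7.44 and 7.46 in untreated libraries. Every treated value lay above every untreated value, and apigenin replicate 3, with 3880 recovered reads, was 11.8-fold above the mean of the other apigenin libraries. With all libraries no comparison was called, at log2 1.44 ± 0.70 for apigenin against untreated (adjusted p = 0.121), 0.90 ± 0.70 for chrysin against untreated (adjusted p = 0.311) and 0.54 ± 0.70 for apigenin against chrysin (adjusted p = 0.549). Without that library, Nfkbib rose by log2 0.55 ± 0.14 with apigenin (adjusted p = 0.00374) and 0.90 ± 0.13 with chrysin (adjusted p = 1.94e-05), and was lower with apigenin than with chrysin (-0.35 ± 0.14, adjusted p = 0.0498). The main fit shares 1 estimate of spread over the 3 groups, so apigenin replicate 3 also widened the error for chrysin against untreated. The chrysin and untreated values themselves had SDs of 0.09 and 0.07 (n = 4 each). A fit to those 8 samples called the rise with chrysin. Nfkbib shares 778 bases with Sirt2 on the opposite strand, 42 of them in exons of both. Sirt2 had a log2 level of 10.53 in apigenin replicate 3 and 10.41 to 10.49 in the other apigenin libraries. The strand setting used in counting is not stated, so reads of the pair could be confused where they overlap.

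Nfkbiz (chr16:55811488-55839012, minus strand) encodes IκBζ, a nuclear IκB protein that acts with p50 on secondary response genes, and it rose with apigenin. In log2 units it had 7.80, 7.78, 7.78 and 7.83 in apigenin, 6.92, 6.85, 7.00 and 6.22 in chrysin, and 6.91, 6.78, 6.82 and 7.25 in untreated libraries. All apigenin values lay above all others and differed little (SD 0.02, n = 4), and chrysin and untreated values overlapped. Nfkbiz rose 1.81-fold with apigenin (log2 0.86 ± 0.18, adjusted p = 0.000866), and with chrysin its log2 fold change was -0.19 ± 0.18 (adjusted p = 0.381). The difference itself was called, with apigenin 2.07-fold above chrysin (log2 1.05 ± 0.18, adjusted p = 0.000126). Nfkbie (chr17:45692665-45700118, plus strand) encodes IκBε, a further cytoplasmic inhibitor, and was not called in any of the 3 comparisons. Log2 values were 4.59, 5.50, 5.05 and 5.58 in apigenin, 5.65, 5.41, 4.39 and 4.61 in chrysin, and 4.99, 4.92, 5.26 and 4.83 in untreated libraries. The 3 groups overlapped on only 13 to 92 reads, with log2 fold changes of 0.18 ± 0.33 for apigenin (adjusted p = 0.679) and 0.02 ± 0.33 for chrysin (adjusted p = 0.974) against untreated.

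The feedback regulators Tnfaip3 and Birc3 were called in opposite directions with the 2 flavones. Tnfaip3 (chr10:18720716-18735463, minus strand) encodes A20, which removes and adds ubiquitin chains on receptor complexes and so ends NF-κB signalling. The log2 level stood at 3.36, 3.86, 3.93 and 2.75 in apigenin, 7.68, 7.69, 6.97 and 7.66 in chrysin, and 4.18, 4.70, 5.24 and 4.89 in untreated libraries. The 3 groups did not overlap, with apigenin lowest and chrysin highest. The values rest on 8, 28, 19 and 6 reads in apigenin, 314, 99, 81 and 120 in chrysin, and 10, 29, 52 and 45 in untreated libraries. Tnfaip3 fell 2.43-fold with apigenin (log2 -1.28 ± 0.33, adjusted p = 0.00389) and rose 6.72-fold with chrysin (log2 2.75 ± 0.33, adjusted p = 2.84e-06). It was 16.3-fold lower with apigenin than with chrysin (log2 -4.03 ± 0.33, adjusted p = 5.16e-08).

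Birc3 (chr9:7848699-7873186, minus strand) encodes cIAP2, a ubiquitin ligase of tumour necrosis factor receptor complexes and a known NF-κB target. Per library, log2 levels were 5.93, 6.69, 6.37 and 6.96 in apigenin, 8.38, 8.75, 8.22 and 8.64 in chrysin, and 7.41, 7.09, 6.79 and 6.86 in untreated libraries. The chrysin values lay above all others, while the highest apigenin value exceeded 2 of the untreated ones. Birc3 rose 2.76-fold with chrysin (log2 1.46 ± 0.21, adjusted p = 2.18e-05). It fell by 0.55 ± 0.21 on the log2 scale with apigenin (adjusted p = 0.0408), a call lost in 11 of 24 alternatives. It was lost without apigenin replicate 1 (-0.36, adjusted p = 0.132), apigenin replicate 3 (-0.51, adjusted p = 0.075), chrysin replicate 1 or 4 (-0.55, adjusted p = 0.0509 each), untreated replicate 1 (-0.42, adjusted p = 0.136) and untreated replicate 2 (-0.53, adjusted p = 0.0838), and with apigenin replicates 2 and 4 alone (-0.21, adjusted p = 0.373).

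Apigenin and chrysin, the 1 pair of compounds here, were set against each other at the same dose and time. Nfkbiz was higher, and Rela and Tnfaip3 were lower, with apigenin, which carries the B-ring hydroxyl, than with chrysin, as given above, and 4 further genes were lower. Nfkb1 was lower by log2 -0.70 ± 0.11 (adjusted p = 5.98e-05), Relb by -1.01 ± 0.25 (adjusted p = 0.00284), Nfkbia by -1.42 ± 0.14 (adjusted p = 4.75e-07) and Birc3 by -2.01 ± 0.21 (adjusted p = 8.31e-07). For each of these 4 genes the apigenin and chrysin values did not overlap. The compounds were not told apart for Nfkb2, at -0.07 ± 0.16 (adjusted p = 0.754), with a 95% interval of -0.41 to 0.28. With apigenin replicates 1 and 3 alone the Nfkb2 difference was -0.37 (adjusted p = 0.0442), and with replicates 2 and 4 alone 0.24 (adjusted p = 0.176). For Nfkbie the interval was -0.54 to 0.87, and for Nfkbib with all libraries -1.03 to 2.12, so sizeable differences in either direction lie within both.

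Ratios of reads within a library do not depend on scaling between libraries. Per 100 reads of Rela there were 17.7, 14.9, 12.7 and 13.8 reads of Nfkbia in apigenin, 28.8, 33.1, 35.4 and 36.5 in chrysin, and 12.6, 9.41, 9.36 and 10.4 in untreated libraries. The inhibitor was thus most abundant relative to p65 RNA in all 4 chrysin libraries. All apigenin values exceeded all untreated ones, narrowly, at 12.7 against 12.6 for the closest. Rela, the denominator, was lower in all apigenin than in all untreated libraries. Nfkbia itself overlapped between those groups and was not called (limma adjusted p = 0.0507). Tnfaip3 reads per 100 Rela reads were 0.843, 1.26, 1.29 and 0.51 in apigenin, 14.3, 15.9, 9.95 and 16.2 in chrysin, and 1.38, 2.01, 3.04 and 2.45 in untreated libraries. Nfkbiz gave 20.2, 20.5, 19.8 and 20.1 in apigenin, 8.42, 8.84, 10.2 and 5.95 in chrysin, and 9.67, 8.72, 9.30 and 12.9 in untreated libraries. On this scale Tnfaip3 did not overlap between any of the groups, and Nfkbiz was highest in the 4 apigenin libraries.

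Levels of different genes were compared as the mean normalized count per kilobase of exons. In untreated libraries Rela was highest at 447.4, followed by Nfkbia at 80.43, Nfkbib at 77.31, Nfkb1 at 66.75 and Nfkb2 at 60.72, whose neighbours in this order overlapped. Birc3 at 26.41 and Nfkbiz at 24.48 overlapped too, as did Relb at 14.52 and Nfkbie at 12.89, and Tnfaip3 was lowest at 3.718. With chrysin, Nfkbia at 274.8 stood second after Rela at 479.2 and apart from Nfkbib at 144.5, Nfkb1 at 124.1 and Nfkb2 at 108.7. Birc3 was at 72.83, Relb at 29.1, Tnfaip3 at 25.41, Nfkbiz at 21.69 and Nfkbie at 13.86, the last 4 overlapping from neighbour to neighbour. With apigenin, Rela was at 404.4, Nfkb2 at 105.6, Nfkbia at 102.7, Nfkb1 at 75.97, Nfkbiz at 44.1, Birc3 at 18.35, Nfkbie at 15.12, Relb at 14.7 and Tnfaip3 at 1.476. Nfkbib spanned 96.32 to 1338 in apigenin libraries, the upper value in replicate 3. In that group Nfkb2 overlapped Nfkbia, and Birc3, Nfkbie and Relb overlapped from neighbour to neighbour.

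**Figure D3:**
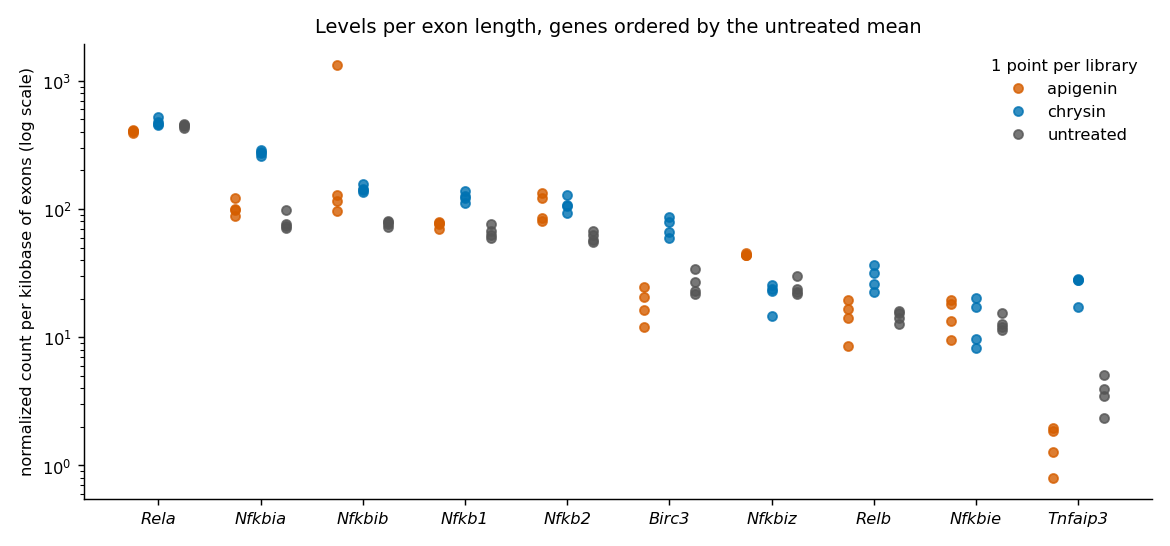
Normalized count per kilobase of exons on a log scale, 1 point per library, with apigenin left of chrysin and untreated and genes ordered by the untreated mean. Rela lies between 393.3 and 524.4 in all 12 libraries, and Tnfaip3 runs from 0.7951 in an apigenin library to 28.51 in a chrysin library.

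Genes most like 2 of the members were found by the root mean square difference of log2 values, each centred on its gene's mean over the 12 libraries. Nearest to Nfkbia were Dbf4, the activating subunit of the CDC7 replication kinase, at 0.138, Scaf4, an RNA polymerase II tail-binding protein, at 0.148 and the chromatin remodeller Chd1 at 0.163. Nearest to Rela were Atp5b, a subunit of mitochondrial ATP synthase, at 0.064, the actin regulator Twf1 at 0.067 and the clathrin adaptor subunit Ap2m1 at 0.071. No shared control is implied by this measure.

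In the rest of the pathway, 82 of 104 listed genes were tested. With apigenin 32 rose, 15 fell and 35 were not called, and with chrysin 31 rose, 13 fell and 38 were not called. Of all tested genes, 23.0% rose and 23.2% fell with apigenin, and 26.3% rose and 26.7% fell with chrysin. Of the 82 genes, 39.0% rose and 18.3% fell with apigenin, and 37.8% rose and 15.9% fell with chrysin. The lists were chosen with earlier results of these data known, so these shares only describe the listed genes. With apigenin against chrysin 18 were higher, 32 lower and 32 not called (22.0% higher and 39.0% lower, beside 24.7% and 26.1% of all tested genes). The median log2 fold change over the 82 genes was 0.23 for apigenin and 0.18 for chrysin against untreated, and -0.13 for apigenin against chrysin, beside 0.01, -0.03 and 0.01 over all tested genes. With apigenin replicates 1 and 3 alone the apigenin counts were 20 higher and 16 lower. With replicates 2 and 4 alone they were 38 higher and 19 lower. Over all tested genes, 2024 were higher and 2302 lower with replicates 1 and 3 alone. The all-gene counts with replicates 2 and 4 alone were 3330 higher and 3370 lower. The difference between the pairs was thus not confined to the listed genes.

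**Figure D4:**
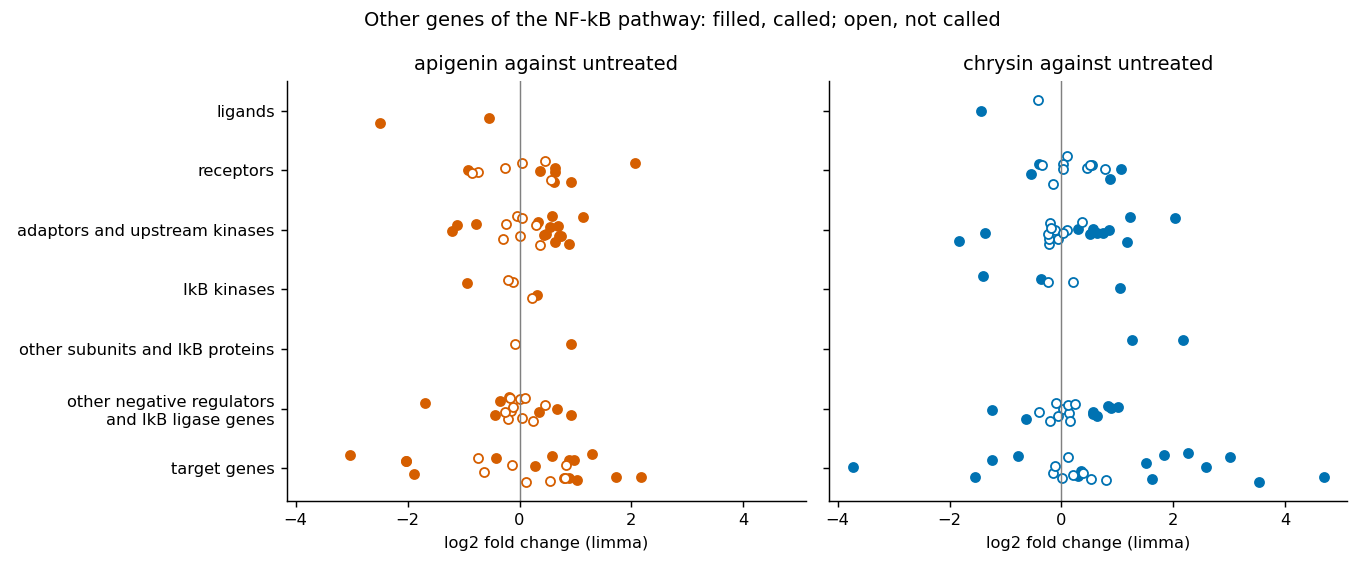
Log2 fold change of each tested pathway gene outside the 10, by list, for apigenin against untreated on the left and chrysin against untreated on the right; filled points were called by limma and open points were not. Rises and falls occur in most lists, and both tested ligands lie below 0 in both panels. Il33, 1 of these ligands, passed the filter on low values through its untreated libraries.

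Most ligands were scarce. Only 2 of 9 passed the filter on low values, Il1b and Tnfsf14 were at 0 reads in every library, and Tnf, which encodes the cytokine that most strongly drives the canonical pathway, had 0 to 7 reads. Il33, an alarmin of the interleukin-1 family, had log2 levels of 1.55 to 3.11 in apigenin, 2.83 to 3.59 in chrysin and 4.03 to 5.17 in untreated libraries, on 2 to 55 reads. It fell by 2.50 ± 0.48 on the log2 scale with apigenin (adjusted p = 0.00045) and by 1.43 ± 0.48 with chrysin (adjusted p = 0.0187). The chrysin call was lost in 3 of 23 alternatives (adjusted p up to 0.0715). Among them were those without untreated replicate 3 (adjusted p = 0.0503) or 4 (adjusted p = 0.0669). Il33 passed the filter, at a mean normalized count of 13.05, through its untreated values. A fall in such a gene is partly built in by the filter. Tnfsf12, which encodes the cytokine TWEAK, had log2 levels of 8.23 to 8.63 in apigenin, 8.08 to 9.30 in chrysin and 8.69 to 9.31 in untreated libraries. It fell by 0.55 ± 0.21 with apigenin (adjusted p = 0.0417) and was not called with chrysin (-0.41, adjusted p = 0.106). Its apigenin call was lost in 11 of 24 alternatives, among them those without apigenin replicate 2, 3 or 4, chrysin replicate 4 or untreated replicate 1, 2 or 3 (adjusted p = 0.054 to 0.122) and with apigenin replicates 1 and 3 alone (-0.48, adjusted p = 0.165) or 2 and 4 alone (-0.61, adjusted p = 0.0507). Its chrysin difference was called without chrysin replicate 3 (-0.64, adjusted p = 0.0045).

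Of 13 receptors, 6 rose and 1 fell with apigenin (46.2% and 7.7%, beside 23.0% and 23.2% of all tested genes), and 3 rose and 2 fell with chrysin (23.1% and 15.4%, beside 26.3% and 26.7%). Tnfrsf1b, the second tumour necrosis factor receptor, had log2 levels of 9.28, 9.76, 9.24 and 9.86 in apigenin, 8.70, 8.35, 8.62 and 8.44 in chrysin, and 6.99, 7.58, 7.53 and 7.75 in untreated libraries. The 3 groups did not overlap, and it rose by 2.07 ± 0.17 with apigenin (adjusted p = 6.03e-08) and 1.06 ± 0.17 with chrysin (adjusted p = 6.77e-05). Tnfrsf1a, the receptor through which tumour necrosis factor mainly activates NF-κB, rose with apigenin (0.64 ± 0.09, adjusted p = 2.88e-05) and was not called with chrysin (0.03, adjusted p = 0.813). Tlr4, the receptor for lipopolysaccharide, rose with apigenin (0.61 ± 0.14, adjusted p = 0.00217) and fell with chrysin (-0.55 ± 0.14, adjusted p = 0.0039). Il1rap, the co-receptor of interleukin-1, rose with both, by 0.92 ± 0.15 with apigenin (adjusted p = 8.38e-05) and 0.86 ± 0.15 with chrysin (adjusted p = 0.000123).

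Of 21 adaptors and upstream kinases, 11 rose and 3 fell with apigenin (52.4% and 14.3%, beside 23.0% and 23.2% of all tested genes), and 9 rose and 2 fell with chrysin (42.9% and 9.5%, beside 26.3% and 26.7%). Traf3, an adaptor that restrains the non-canonical pathway, rose by log2 1.13 ± 0.15 with apigenin (adjusted p = 1.53e-05) and 1.17 ± 0.15 with chrysin (adjusted p = 8.12e-06). Traf6, the ubiquitin ligase of interleukin-1 and Toll-like receptor signalling, rose by 0.69 ± 0.14 with apigenin (adjusted p = 0.000617) and 1.23 ± 0.14 with chrysin (adjusted p = 1.74e-06). Tab3, which links ubiquitin chains to the kinase TAK1, rose by 0.88 ± 0.23 with apigenin (adjusted p = 0.00602) and 2.03 ± 0.23 with chrysin (adjusted p = 5.09e-06), the apigenin call being lost with apigenin replicates 1 and 3 alone (0.35, adjusted p = 0.0622). Rbck1, part of the linear ubiquitin ligase, rose with apigenin (0.74 ± 0.13, adjusted p = 0.000159) and was not called with chrysin (-0.23, adjusted p = 0.138) unless chrysin replicate 1 was left out (-0.33, adjusted p = 0.0345). Of 5 IκB kinase genes, 1 rose and 1 fell with apigenin, and 1 rose and 2 fell with chrysin. Ikbke, a non-canonical member of the kinase family, fell by 0.94 ± 0.21 with apigenin (adjusted p = 0.00157) and by 1.40 ± 0.21 with chrysin (adjusted p = 3.54e-05). Chuk, which encodes IKKα, rose by 0.31 ± 0.13 with apigenin (adjusted p = 0.049) and 1.05 ± 0.13 with chrysin (adjusted p = 3.15e-06). The apigenin call of Chuk was lost in 13 of 24 alternatives, among them those without apigenin replicate 2 or 4, chrysin replicate 1, 2 or 4, or untreated replicate 1, 2 or 3 (adjusted p = 0.0525 to 0.158) and with apigenin replicates 1 and 3 alone (0.08, adjusted p = 0.619). Ikbkg, which encodes the scaffold NEMO, fell with chrysin (-0.37 ± 0.10, adjusted p = 0.00689) and was not called with apigenin (0.21, adjusted p = 0.102).

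A list of other regulators held 13 tested negative regulators and 4 genes of the ubiquitin ligase that marks IκB for degradation, Btrc, Cul1, Fbxw11 and Skp1a, which act in favour of NF-κB and were separated after their values were seen. Of the 13, 3 rose and 2 fell with apigenin, and 5 rose and 2 fell with chrysin, beside 23.0% and 23.2%, and 26.3% and 26.7%, of all tested genes. Of the 4 ligase genes, Cul1 fell with apigenin and Fbxw11 rose with chrysin. Rnf11, a partner of A20 in its ubiquitin-editing complex, rose by log2 0.93 ± 0.09 with apigenin (adjusted p = 5.66e-07) and 0.57 ± 0.09 with chrysin (adjusted p = 7.33e-05). Otud7b, a deubiquitinase that acts on TRAF3, rose by 0.66 ± 0.11 with apigenin (adjusted p = 0.000168) and 0.83 ± 0.11 with chrysin (adjusted p = 1.46e-05). Pdlim2, a ubiquitin ligase for nuclear p65, fell by 1.69 ± 0.18 with apigenin (adjusted p = 1.1e-06) and by 1.25 ± 0.18 with chrysin (adjusted p = 2.18e-05). Cul1, the scaffold of the ligase that marks IκB, fell by 0.35 ± 0.12 with apigenin (adjusted p = 0.0237), a call lost in 5 of 24 alternatives. Among them were those without apigenin replicate 2 or 4 (adjusted p = 0.0753 each) or untreated replicate 2 (adjusted p = 0.0664), and with apigenin replicates 1 and 3 alone (-0.16, adjusted p = 0.301). Fbxw11, a substrate receptor of the same IκB ligase, rose with chrysin (1.02 ± 0.11, adjusted p = 1.33e-06). It was not called with apigenin (0.24, adjusted p = 0.0851) unless apigenin replicate 1 (0.34, adjusted p = 0.0151) or 3 (0.31, adjusted p = 0.0379) was left out.

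Of 22 tested genes listed as NF-κB targets, 10 rose and 5 fell with apigenin (45.5% and 22.7%, beside 23.0% and 23.2% of all tested genes), and 10 rose and 4 fell with chrysin (45.5% and 18.2%, beside 26.3% and 26.7%). Their median log2 fold change was 0.56 for apigenin and 0.36 for chrysin against untreated, beside 0.01 and -0.03 over all tested genes. Ptgs2, which encodes the inducible prostaglandin synthase cyclooxygenase-2, had log2 levels of 10.30, 10.81, 10.06 and 10.99 in apigenin, 11.76, 11.96, 11.90 and 11.95 in chrysin, and 8.20, 8.30, 8.46 and 8.53 in untreated libraries. The 3 groups did not overlap, and Ptgs2 rose by 2.17 ± 0.16 with apigenin (adjusted p = 4.4e-08) and 3.52 ± 0.16 with chrysin (adjusted p = 2.91e-10). Csf1, the macrophage growth factor, rose by 0.57 ± 0.13 with apigenin (adjusted p = 0.00148) and 1.61 ± 0.13 with chrysin (adjusted p = 5.76e-08). Irf1, an interferon-response transcription factor, rose by 0.88 ± 0.14 with apigenin (adjusted p = 6.31e-05) and 1.51 ± 0.14 with chrysin (adjusted p = 1.81e-07). Ier3, an immediate early survival gene, rose by 1.30 ± 0.14 with apigenin (adjusted p = 1.27e-06) and 0.34 ± 0.14 with chrysin (adjusted p = 0.049). The chrysin call of Ier3 was lost in 12 of 24 alternatives, among them those without apigenin replicate 2, 3 or 4, chrysin replicate 1, 3 or 4, or untreated replicate 2, 3 or 4 (adjusted p = 0.0508 to 0.153). Bcl2l1, which encodes the survival protein Bcl-xL, rose with apigenin (0.89 ± 0.10, adjusted p = 2.24e-06) and was not called with chrysin (-0.15, adjusted p = 0.207). Ptgs2, Csf1 and Irf1 were lower with apigenin than with chrysin, by log2 -1.35 ± 0.16 (adjusted p = 5.72e-06), -1.04 ± 0.13 (adjusted p = 5.87e-06) and -0.63 ± 0.14 (adjusted p = 0.00105), in that order. Ier3 and Bcl2l1 were higher with apigenin than with chrysin, by 0.96 ± 0.14 (adjusted p = 2.71e-05) and 1.04 ± 0.10 (adjusted p = 3.22e-07), in that order.

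The targets that fell, named after their values were seen, were Ccl2, Ccl7, Cxcl5 and Vcam1 with both flavones and Sod2 with apigenin. Not all chemokine targets fell. Cx3cl1 rose with apigenin (1.725 ± 0.288, adjusted p = 0.000144) and was not called with chrysin (adjusted p = 0.581). Cxcl2 rose with chrysin (4.691 ± 0.769, adjusted p = 8.16e-05) and was not called with apigenin (adjusted p = 0.409). Cxcl2 had 0 to 118 reads and passed the filter through its chrysin values. Among other targets Lif, Plau, Mmp13 and Gadd45b rose with chrysin, by 3.01, 2.59, 2.25 and 1.84. Lif also rose with apigenin (0.97 ± 0.29, adjusted p = 0.0117), where Plau, Mmp13 and Gadd45b were not called. Tnfaip2 and Ptges rose with apigenin, by 1.03 and 0.80 (adjusted p = 1.17e-05 and 0.000135), and were not called with chrysin. Cflar rose with both, by 0.27 with apigenin and 0.29 with chrysin. The monocyte chemokine Ccl2 had log2 levels of 6.58, 5.75, 6.68 and 5.58 in apigenin, 6.82, 6.25, 6.49 and 6.98 in chrysin, and 8.22, 8.25, 8.25 and 8.03 in untreated libraries. It fell by 2.04 ± 0.24 on the log2 scale with apigenin (adjusted p = 3.17e-06) and by 1.55 ± 0.24 with chrysin (adjusted p = 4.05e-05), with no treated value in the untreated range. The neutrophil chemokine Cxcl5 had log2 levels of 7.25, 4.34, 7.27 and 3.40 in apigenin, 4.85, 5.01, 5.30 and 4.28 in chrysin, and 8.62, 8.60, 8.60 and 8.54 in untreated libraries. Its apigenin values divided widely between replicates 1 and 3 and replicates 2 and 4, all below the untreated ones. Cxcl5 fell with apigenin (-3.02 ± 0.78, adjusted p = 0.00871) and with chrysin (-3.73 ± 0.78, adjusted p = 0.00216). Both errors rest on the spread of all 3 groups, whose SDs were 1.99 in apigenin, 0.43 in chrysin and 0.03 in untreated libraries (n = 4 each). Vcam1, an adhesion molecule for leukocytes, had log2 levels of 9.02, 7.03, 8.69 and 7.23 in apigenin, 8.48, 8.81, 8.70 and 8.60 in chrysin, and 9.90, 9.93, 9.89 and 9.84 in untreated libraries. Vcam1 too divided between the apigenin pairs, and fell by 1.89 ± 0.38 with apigenin (adjusted p = 0.00205) and by 1.24 ± 0.38 with chrysin (adjusted p = 0.0181). Ccl7, another monocyte chemokine, fell by 2.03 ± 0.30 with apigenin (adjusted p = 5.04e-05) and by 0.78 ± 0.30 with chrysin (adjusted p = 0.0371). The chrysin call of Ccl7 was lost in 10 of 24 alternatives, among them those without any 1 chrysin replicate or untreated replicate 1, 3 or 4 (adjusted p = 0.0513 to 0.0937). Sod2, the mitochondrial superoxide dismutase, fell by 0.42 ± 0.10 with apigenin (adjusted p = 0.00338).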

How the data were processed

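Stranded mRNA libraries were sequenced, per the labels' protocols, and the submitters' processing notes name STAR, HTSeq, DESeq2, cutadapt and FastQC, and build mm9. The sources used here do not give versions, annotation or strand setting. The authors deposited 1 log2 value per gene and sample, which the values themselves show to be log2 of a normalized count plus 1. Whole reads were recovered from their steps: 99.966% to 100% of values under 500 reads lay within 0.05 of a whole number. Gene names that had become dates (27) were restored through gene IDs.

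Sample titles gave the groups. A filter kept genes whose mean normalized count reached 10. R 4.3.3 and limma 3.58.1 then fitted 1 mean per group over all 12 samples, using trend and robust estimation, two-sided tests and Benjamini-Hochberg adjustment over the 12198 genes tested; adjusted p under 0.05 was called. All adjusted p-values are from limma, and errors are standard errors (n = 4 per group) unless SD is named. Each gene's standard error rests on 1 spread estimated over all 3 groups. A wide spread in 1 group therefore also widens the error of the comparison between the other groups. Fold changes on this scale understate changes of genes with few reads. The test was checked on simulated data.

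The genes and pathway lists were chosen with earlier results of these data known. The text names all 10 genes, Rel, Bcl3, up to 3 called genes of smallest p per list and flavone, and the 3 genes nearest to Nfkbia and Rela. Scarce ligands, Cul1 and other IκB ligase genes, targets that fell, some further targets that rose, and marker or overlapping genes were named outside this rule. Positions and exon lengths came from GENCODE vM1 on NCBIM37 (mm9). Alternatives were quantile normalization, median centring, no filter or a minimum mean of 50, limma-voom on recovered reads, limma with neither trend nor robust estimation, pseudocounts of 0.25 and 4, a replicate block, the 8 samples of 2 groups, either apigenin pair alone, and leaving out each library.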

Additional observations from a re-analysis of the deposited data

Results flagged for a closer look

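Across 36 groups of 4 samples checked for a value standing apart, 2 were found; chance gives about 1 in 20. Nfkbib in apigenin replicate 3 had a log2 level of 11.503, where the nearest other apigenin value was 8.142, and the gap took up 0.887 of the group's range. Tnfaip3 in chrysin replicate 3 had a log2 level of 6.968, where the nearest other chrysin value was 7.657, and the gap took up 0.95 of the group's range. That chrysin value still lay above all apigenin and untreated values of Tnfaip3.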

How the results depend on the processing

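Over 24 alternatives, 3 to 5 of the 10 genes were called for apigenin against untreated, 6 to 7 for chrysin against untreated and 6 to 8 for apigenin against chrysin, and counts over all genes stayed within 1.5 times of those reported. A fit with the replicate number as a block left the counts at 4, 6 and 7. Correlations of same-numbered deviations ran from -0.10 to 0.10, with 1 of 12 over 0.1. The best match had the same number in 6 of 24 choices. The apigenin deviations include the split of replicates 1 and 3 from replicates 2 and 4. Whether equal replicate numbers mark paired samples is not stated in the sample titles and was not tested. Among other named genes the block ended the calls of Twf1 for apigenin (adjusted p = 0.0693) and Ier3 for chrysin (adjusted p = 0.0765) against untreated. The remaining values are log2 fold changes that changed sign; causes were not tested. For apigenin against untreated, Relb was 0.021 under quantile normalization, 0.06 under limma-voom on recovered reads, 0.31 with apigenin replicates 2 and 4 alone and -0.20 to 0.19 leaving out 1 library; Rel was 0 under quantile normalization, 0.14 with replicates 2 and 4 alone and -0.18 to 0.12 leaving out 1 library. Nfkbie was -0.18 with replicates 1 and 3 alone, and Atp5b 0.16 under quantile normalization. For chrysin against untreated, quantile normalization gave -0.039 for Rela, -0.11 for Tnfrsf1a, -0.072 for Twf1, -0.005 for Cul1 and -0.10 for Ap2m1. Leaving out 1 library gave -0.20 to 0.23 for Nfkbie and -0.059 to 0.079 for Tnfrsf1a. For apigenin against chrysin, quantile normalization gave -0.051 for Nfkbie, 0.028 for Traf3, 0.027 for Otud7b, 0.10 for Atp5b and 0.055 for Ap2m1. With apigenin replicates 2 and 4 alone, Nfkb2 was 0.24, Nfkbib -0.23, Traf3 0.24, Otud7b 0.04 and Cxcl5 -0.99, and with replicates 1 and 3 alone, Nfkbie was -0.20, Il1rap -0.028 and Vcam1 0.21. Leaving out 1 library gave -0.19 to 0.049 for Nfkb2, -0.35 to 0.92 for Nfkbib, -0.044 to 0.38 for Nfkbie, -0.31 to 0.10 for Tnfsf12, -0.024 to 0.17 for Il1rap and -0.16 to 0.053 for Traf3. Nfkbib took its negative value without apigenin replicate 3. With a minimum mean of 50, Nfkbie, Rel and Il33 were not tested. The lowest counts in a library were 6 reads for Tnfaip3, 13 for Nfkbie and 29 for Relb.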
